A study of Homo sapiens with 12 samples.

Results

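Transcript levels of 43 genes of ribosome biogenesis and of RNA polymerase I (Pol I) were followed through MAPK inhibition, drug removal and regrowth in A375, a human skin melanoma cell line. The 43 genes were taken by symbol from a table of raw read counts that lists 44659 genes. All 43 were found, and all 43 were among the 15916 genes tested, which had a mean scaled count of at least 10 over the 12 libraries. Control cells (CC) were given the solvent DMSO for 72 h. MAPKi-treated cells (TC) were given 500 nM of the BRAF inhibitor vemurafenib plus 500 nM of the MEK inhibitor cobimetinib for 72 h and harvested at once. Persister cells (PC) had the same 72 h of MAPKi followed by 2 days in drug-free medium, and recovered cells (RC) had it followed by 9 days in drug-free medium. Each group had 3 libraries of rRNA-depleted RNA, which the authors describe as prepared from total RNA. All CC libraries were assigned to day 0, so harvest day and group cannot be told apart in PC and RC. Nothing in the sources used here says that the 3 libraries of a group came from separate cultures, and p-values measure the spread between these libraries, which may be technical.

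Ribosomes are built in the nucleolus, where Pol I copies the ribosomal DNA into a long precursor RNA. Guide complexes made of small nucleolar RNA and protein (snoRNPs) modify that RNA, box C/D complexes by methylation and box H/ACA complexes by pseudouridylation. Large assemblies then cleave and fold it around ribosomal proteins, the small-subunit processome for the small subunit and the PeBoW complex with other factors for the large subunit. Output of the pathway follows growth signals such as MAPK and MYC, and it is among the largest costs of a dividing cell.

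Total counts ran from 37773389 to 55567097 per library, and 3 counts, taken as the floor of detection, were 0.0794 CPM (counts scaled to a normalised library size) at the lowest depth. This floor covers counting error only. The first principal component of all tested genes held 70.1% of the variance, with CC and RC at one end and TC and PC at the other. Of the 7 markers of melanoma cells, VIM (1907 to 2901 CPM) and MITF (147 to 476 CPM) were present in every library. SOX10 was at 650 to 664 CPM in CC, 1027 to 1067 in TC, 901 to 992 in PC and 539 to 564 in RC, and PMEL at 63.3 to 75.3 CPM in CC, 420 to 817 in TC, 187 to 358 in PC and 36.9 to 41.9 in RC. S100B was at 234 to 305 CPM in CC, 128 to 149 in TC, 269.5 to 278 in PC and 201 to 209 in RC. MLANA reached at most 1.94 CPM and PRAME at most 2 counts. The 7 markers of leukocytes, epithelium, endothelium and liver summed to 0.550 to 1.08 CPM in CC, 0.392 to 0.726 in TC, 2.13 to 2.82 in PC and 0.435 to 0.886 in RC. Among these 7, CDH5 had no count, and CD3E, PECAM1 and ALB had at most 2 counts in any library. KRT14, a keratin of basal epithelium, was at 0 to 0.0452 CPM in CC and reached 2.64 CPM in PC. EPCAM, the other epithelial marker, went the other way, with 0.0847 to 0.339 CPM in CC and 0 to 0.0231 in PC. PTPRC, a leukocyte marker, was at 0.4655 to 0.655 CPM in CC and 0.116 to 0.174 in PC. Whether other cell types had any part in the PC results was not tested.

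As a share of all counts, the 43 genes together took 0.723%, 0.702% and 0.807% in CC replicates 1 to 3 and 0.384%, 0.382% and 0.377% in TC. Their share was 0.395%, 0.398% and 0.406% in PC and 0.750%, 0.780% and 0.781% in RC. The TC and PC libraries were therefore all below every CC and RC library. NCL and NPM1, the pair with the most counts, made up 0.290% to 0.309% of counts in CC, 0.1203% to 0.1298% in TC, 0.134% to 0.137% in PC and 0.324% to 0.345% in RC. The other 41 genes alone took 0.392% to 0.500% in CC, 0.254% to 0.257% in TC, 0.261% to 0.272% in PC and 0.426% to 0.436% in RC. A share of a bulk library cannot tell fewer transcripts per cell from fewer cells that carry them. Per kilobase of annotated exon, CC values ran from 1.124 CPM per kb for FBL to 213 for NPM1. NCL (141), NOLC1 (74.9), RRS1 (54.5) and GNL3 (52.3 CPM per kb) followed NPM1. Exon bases were pooled over all annotated transcripts of a gene, giving 8311 for NPM1 and 1720 for RRS1. Such a length can exceed that of the transcripts in these cells, so this order of genes is only rough.

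**Figure D1:**
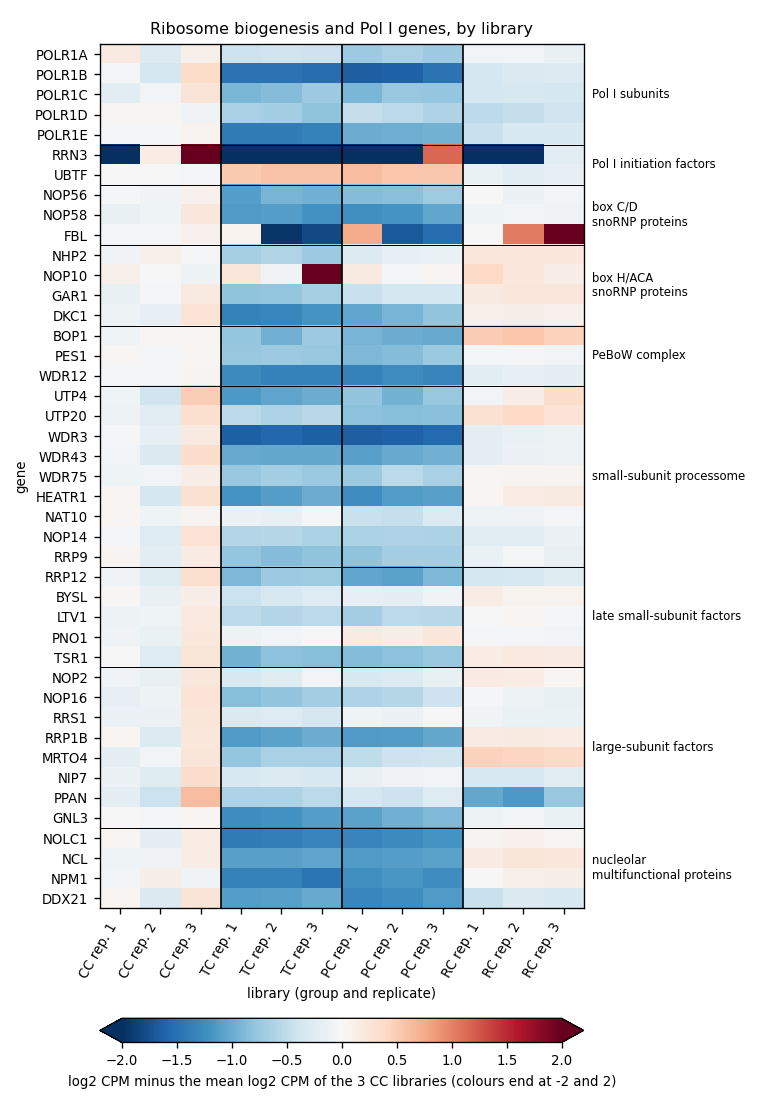
Each row is one of the 43 genes, each column one of the 12 libraries, and the colour is log2 CPM minus the mean log2 CPM of the 3 CC libraries, with black lines between roles and between groups. Most genes are blue (lower) in TC and PC and pale in RC, UBTF is red in TC and PC, and RRN3, FBL and NOP10 are scattered within groups.

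The first comparison asked what 72 h of MAPKi did to the pathway. In TC, 37 of the 43 genes were lower than in CC, against 34.7% of all tested genes (edgeR, adjusted p under 0.05). UBTF and NOP10 were higher, against a background of 33.2%, and FBL, NAT10, PNO1 and NOP2 were not called. The median log2 fold change was -0.82 for the 43 genes and -0.02 for all tested genes. In 26 genes the fall was beyond 1.5-fold (19 by DESeq2), compared with 19.3% of tested genes. For 36 genes every TC library lay below every CC library, again compared with 34.7% of tested genes.

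All 5 Pol I subunits in the set fell. POLR1B, the second largest subunit and part of the active centre, stood at 187, 149 and 245 CPM in CC replicates 1 to 3 and at 68.1, 68.3 and 66.2 CPM in TC. The groups were well apart although the CC libraries were themselves spread, and the fall was 2.87-fold (log2 -1.52, SE 0.14, edgeR adjusted p = 8.47e-07). POLR1A, the largest subunit, had the smallest fall of the 5, from 137, 100.4 and 130.2 CPM to 90.5, 92.2 and 91.4 CPM (log2 -0.43, SE 0.09, edgeR adjusted p = 0.00165). The CC and TC libraries of POLR1A did not overlap, but the nearest pair, 100.4 and 92.2 CPM, was closer together than the ends of the CC range. POLR1E, a subunit of the Pol I specific heterodimer, fell by 1.39 on the log2 scale, POLR1C, shared with Pol III, by 0.85 and POLR1D, also shared with Pol III, by 0.71.

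Of the initiation factors, UBTF moved against the rest. UBTF, which binds along the ribosomal genes and keeps them in an open state, measured 188, 189 and 184 CPM in CC and 268, 278 and 277 CPM in TC. It was higher in every TC library, by 1.47-fold (log2 0.55, SE 0.05, edgeR adjusted p = 9.36e-07), which was not beyond 1.5-fold. Its gene lies on chromosome 17 from 44205033 to 44221626 (GENCODE v44 on hg38). RRN3, the factor that makes Pol I competent to start, was listed at 0.370, 3.30 and 19.5 CPM in CC and at 0.622, 0.409 and 0.522 CPM in TC. The fitted log2 fold change of RRN3 was -3.89 (SE 1.40, edgeR adjusted p = 0.0261), but CC replicate 1 lay below all 3 TC libraries, so the value rests on CC replicates 2 and 3. Without CC replicate 3 the log2 value was -1.82, and the call was also lost without any of the 3 TC libraries.

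Both reliably counted box C/D proteins fell. NOP58, a core scaffold, went from 127, 133 and 165 CPM in CC to 64.4, 65.7 and 61.0 CPM in TC (log2 -1.15, SE 0.09, edgeR adjusted p = 2.78e-07). Its partner NOP56 fell by 1.00 on the log2 scale. FBL encodes the methyltransferase of these complexes, and it had 2.34, 2.33 and 2.54 CPM in CC and 2.51, 0.588 and 0.653 CPM in TC. TC replicate 1 of FBL sat among the CC libraries, and the difference (log2 -0.95, SE 0.83, edgeR adjusted p = 0.327) was not called.

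In the box H/ACA group 3 of 4 genes fell. DKC1, the pseudouridine synthase, measured 170, 162 and 220 CPM in CC and 71.4, 74.2 and 79.5 CPM in TC, a 2.45-fold fall without overlap (log2 -1.29, SE 0.11, edgeR adjusted p = 4.25e-07). GAR1 fell by 0.75 and NHP2 by 0.67 on the log2 scale, both partners of DKC1 in the complex. NOP10, the smallest of the 4 proteins, was at 6.12, 5.72 and 5.35 CPM in CC and at 6.71, 5.44 and 60.2 CPM in TC. A single library, TC replicate 3, carried the call of NOP10 as higher (log2 2.08, SE 0.70, edgeR adjusted p = 0.0189), and without that library the log2 value was 0.09 and the call was lost. The call was also lost without CC replicate 2 or CC replicate 3, at log2 2.08 and 2.04.

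The PeBoW complex, which processes the large-subunit precursor, fell in all 3 parts and in each beyond 1.5-fold. WDR12 measured 108, 107.3 and 114 CPM in CC and 45.0, 43.03 and 42.7 CPM in TC (log2 -1.33, SE 0.05, edgeR adjusted p = 1.01e-09). The smallest fall was that of PES1, from 209, 201 and 209.9 CPM to 122, 125 and 122 CPM (log2 -0.75, SE 0.05, edgeR adjusted p = 1.5e-07). For these genes the spread within groups was small beside the difference. BOP1, the third component, fell by 0.82 on the log2 scale.

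Of the 9 small-subunit processome genes 8 fell, 6 of them beyond 1.5-fold. WDR3, a WD-repeat scaffold protein whose gene lies on chromosome 1 from 117929720 to 117966543 (hg38), had the largest fall of the reliably counted genes. It went from 124, 112 and 143 CPM in CC to 40.3, 42.1 and 40.3 CPM in TC, a 3.09-fold difference (log2 -1.63, SE 0.08, edgeR adjusted p = 4.68e-09). HEATR1 fell by 1.121, UTP4 by 1.11, WDR43 by 1.04, RRP9 by 0.82, WDR75 by 0.73, NOP14 by 0.62 and UTP20 by 0.59 on the log2 scale. NAT10, the RNA acetyltransferase of the processome, did not follow them. Its levels of 111, 101.5 and 112 CPM in CC and 99.01, 97.7 and 105.5 CPM in TC overlapped (log2 -0.10, SE 0.06, edgeR adjusted p = 0.197), with an interval from -0.23 to 0.03.

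Among late factors of the small subunit 4 of 5 fell. TSR1, a GTPase-like factor that rides on the precursor to the cytoplasm, went from 156, 129 and 183 CPM in CC to 79.8, 87.1 and 86.0 CPM in TC (log2 -0.89, SE 0.10, edgeR adjusted p = 6.96e-06). RRP12, an export factor, fell by 0.80, LTV1 by 0.56 and BYSL by 0.34 on the log2 scale. PNO1, which guards the cleavage site at the end of the small-subunit RNA, was the exception. It stood at 50.1, 48.0 and 61.0 CPM in CC and 49.2, 50.9 and 52.9 CPM in TC, overlapping throughout (log2 -0.06, SE 0.08, edgeR adjusted p = 0.552), and the sign of this difference turned without CC replicate 3 (log2 0.06).

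In the group of 8 large-subunit factors 7 fell, 3 of them beyond 1.5-fold. GNL3 (nucleostemin), a nucleolar GTPase of dividing cells, measured 169, 165 and 174 CPM in CC and 71.7, 73.2 and 79.1 CPM in TC (log2 -1.18, SE 0.06, edgeR adjusted p = 1e-08). RRP1B fell by 1.08, NOP16 by 0.79, MRTO4, which holds a place on the precursor for the stalk proteins, by 0.70, PPAN by 0.67, NIP7 by 0.32 and RRS1 by 0.30 on the log2 scale. NOP2, an RNA methyltransferase, had the smallest difference, between 57.5, 54.3 and 70.3 CPM in CC and 48.6, 51.1 and 57.9 CPM in TC (log2 -0.21, SE 0.10, edgeR adjusted p = 0.0765). The CC and TC libraries of NOP2 overlapped, and NIP7, RRS1 and PPAN each lost their call under at least 1 other way of fitting. Without CC replicate 3, the log2 value was -0.11 for NIP7 and -0.29 for PPAN, and neither was called.

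The 4 abundant nucleolar proteins all fell beyond 1.5-fold and had the lowest median of the role groups with more than 2 genes, log2 -1.23. NPM1, a chaperone that organises the nucleolus, went from 1703, 1919 and 1692 CPM in CC to 696, 695 and 645 CPM in TC, or 2.61-fold (log2 -1.38, SE 0.06, edgeR adjusted p = 3.12e-09). NCL, the RNA-binding protein nucleolin, went from 1188, 1197 and 1394 CPM to 593, 589.6 and 602 CPM, the smallest fall of the 4 (log2 -1.08, SE 0.06, edgeR adjusted p = 2.24e-08). For both genes the lowest CC library was more than the whole CC range above the highest TC library. NOLC1, a chaperone of snoRNPs, fell by 1.37 and DDX21, an RNA helicase, by 1.09 on the log2 scale.

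**Figure D2:**
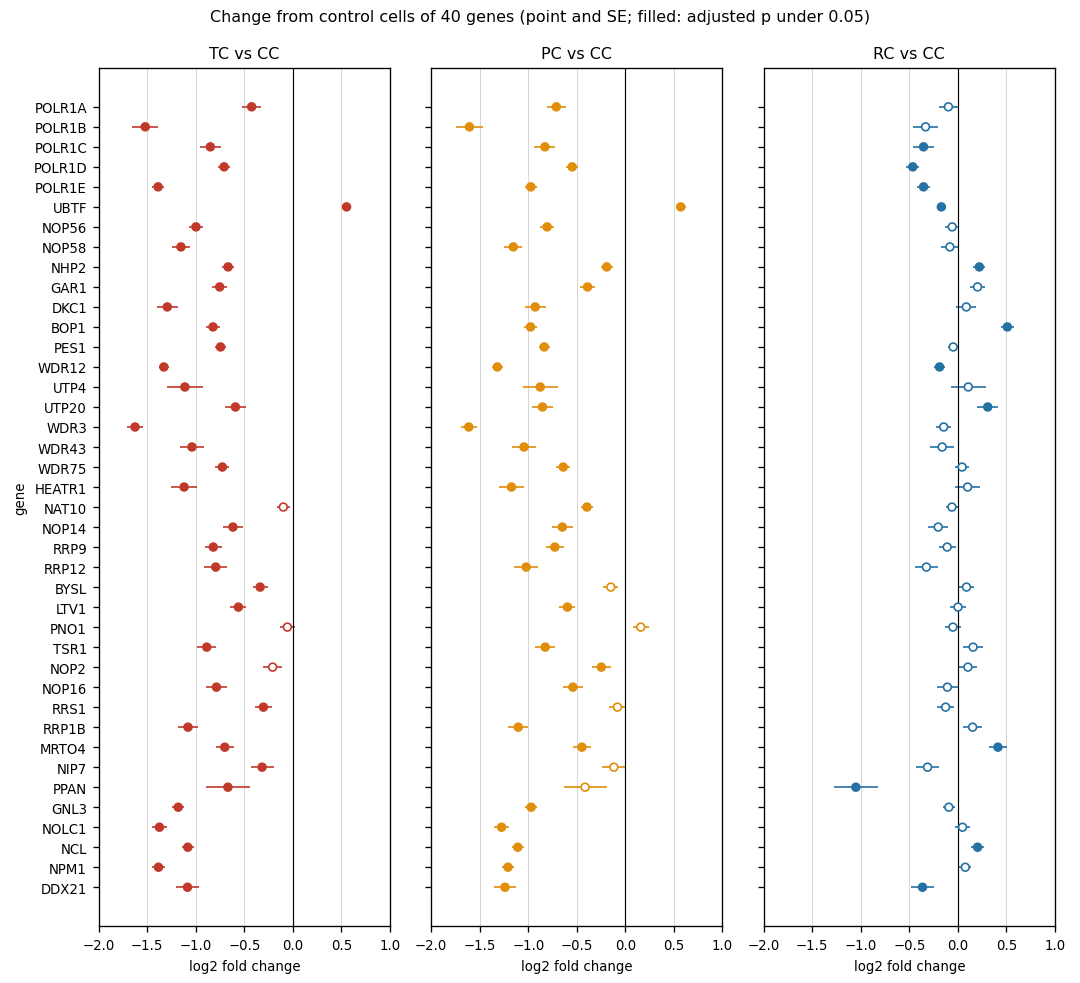
Log2 fold change from CC (point) with its standard error (bar) for the 40 genes without RRN3, FBL and NOP10, in TC, PC and RC, where filled points have an edgeR adjusted p under 0.05. In TC and PC the points lie left of 0 except UBTF (0.55 and 0.57) and, in PC, PNO1 (0.16, open), and in RC they lie around 0.

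Promoters are shown because these genes moved together and because the E-box CACGTG is the site to which MYC with its partner MAX is known to bind. RefSeq promoter windows (GRCh38.p14, each running from upstream of a start to 50 bases past it) were matched for 36 of the 43 genes, and BOP1, NOLC1, NOP58, POLR1E, RRP12, RRP1B and RRS1 were not matched. CACGTG reads the same on both strands, and it was found in 17 of the 36 genes (47.2%), in 12.4% of the 11587 tested genes with a window and in 8.77% of all 27305 genes with one. In all 17 a copy started within 50 bases of the transcription start, which held for 5.01% of tested genes, and this window was chosen after the positions were seen. Of the other biogenesis genes listed below 26.1% had the motif, and of the cytosolic ribosomal protein genes 6.35%. The ETS-type words CGGAAG (52.8% of the 36 genes, 36.1% of tested genes) and GGAAGC (44.4% and 40.1%), searched on both strands and sharing the letters GGAAG, were nearer to their background. In the other biogenesis genes CGGAAG was more frequent, at 65.2%, and in the cytosolic ribosomal protein genes it was at 63.5%. GGAAGC was in 49.6% and 36.5% of these 2 lists. Shown are 30 bases of 10 promoters along the strand of the gene, with the motif in capitals, of which the first 8 genes fell in TC and the last 2 were not called.
GNL3 (chr3:52686026-52686055, plus strand): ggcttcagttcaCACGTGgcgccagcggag
PES1 (chr22:30591880-30591909, minus strand): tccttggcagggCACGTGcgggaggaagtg
WDR43 (chr2:28894658-28894687, plus strand): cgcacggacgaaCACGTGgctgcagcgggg
DDX21 (chr10:68956604-68956633, plus strand): ggccgggtgtccCACGTGgtccccggcgac
UTP20 (chr12:101280083-101280112, plus strand): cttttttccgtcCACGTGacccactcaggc
RRP9 (chr3:51941892-51941921, minus strand): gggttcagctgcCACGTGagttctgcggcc
GAR1 (chr4:109815781-109815810, plus strand): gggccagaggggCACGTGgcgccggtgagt
MRTO4 (chr1:19251807-19251836, plus strand): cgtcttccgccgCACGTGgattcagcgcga
PNO1 (chr2:68157885-68157914, plus strand): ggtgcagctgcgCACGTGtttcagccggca
NAT10 (chr11:34105602-34105631, plus strand): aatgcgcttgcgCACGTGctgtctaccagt

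The bases beside the motif differed from gene to gene. Its first base lay 3 bases after the start in WDR43, 6 after it in GNL3 and 31 before it in DDX21. In TC the median log2 value was -0.70 over the 17 genes with the motif, which ran from -1.18 in GNL3 to 2.08 in NOP10. Over the 19 without it the median was -0.89, and they ran from -3.89 in RRN3 to 0.55 in UBTF. The difference between these medians was not tested. A match is a string of letters in this window and not a measured binding site.

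**Figure D3:**
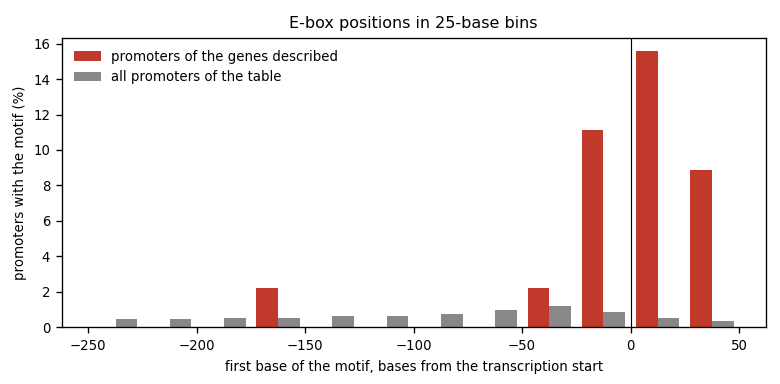
Share of promoter windows (%) with a CACGTG that starts in each 25-base bin, against the distance from the transcription start in bases, for 45 windows of the 36 matched genes and for all 35116 windows of the table. The highest share among the genes described is 15.6% in the bin from 0 to 25, where all windows have 0.544%.

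PC was then set against CC, to see where these levels stood 2 days after drug removal. In PC, 34 of the 43 genes were lower than in CC, against 35.9% of tested genes, and UBTF alone was higher, against 33.2%. The median log2 fold change was -0.83, beside -0.04 over all tested genes, and 21 genes were lower beyond 1.5-fold (18 by DESeq2), against 19.9%. The summed share of counts, given above, was slightly above TC in every PC library and far below CC. WDR3 stood at 40.0, 41.0 and 42.8 CPM in PC (log2 -1.61, SE 0.08, edgeR adjusted p = 4.98e-09). POLR1B stood at 60.8, 61.8 and 68.3 CPM (log2 -1.61, SE 0.14, edgeR adjusted p = 5.12e-07), and WDR12 at 42.7, 45.5 and 43.4 CPM (log2 -1.32, SE 0.05, edgeR adjusted p = 1.03e-09). These 3 had the largest called falls, and each of their PC libraries lay below every CC library. At the other end, UBTF measured 287, 274 and 271 CPM (log2 0.57, SE 0.05, edgeR adjusted p = 6.79e-07). NHP2, at 55.3, 59.7 and 61.2 CPM, was close to its CC range of 63.7 to 71.7 CPM (log2 -0.19, SE 0.06, edgeR adjusted p = 0.0171). NOP2, at 48.9, 50.1 and 54.4 CPM, overlapped CC by 1 library (log2 -0.25, SE 0.10, edgeR adjusted p = 0.0394). The calls of NHP2 and NOP2 were lost in 3 and 11 of 18 alternative fits.

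Set directly against TC, PC differed in few of the genes. In PC 5 genes were higher than in TC, against 12.2% of tested genes, and 2 were lower, against 12.5%, and 36 were not called. The median log2 difference between PC and TC was 0.06. NHP2 had the largest rise, from 42.1, 44.4 and 40.4 CPM in TC (log2 0.47, SE 0.06, edgeR adjusted p = 0.000247). POLR1E rose from 17.0, 17.0 and 17.5 CPM to 22.7, 22.8 and 23.2 CPM (log2 0.41, SE 0.06, edgeR adjusted p = 0.000677). DKC1 rose to 88.3, 96.1 and 105 CPM (log2 0.37, SE 0.11, edgeR adjusted p = 0.0257). With GAR1 (log2 0.36), the 3 H/ACA genes that had fallen in TC were all called higher than in TC at day 2. Picking them for their fall in TC favours such a rise. NOP10, the other H/ACA gene, was not called (log2 -2.02, edgeR adjusted p = 0.0529), and its value rested on TC replicate 3. GNL3 was also called higher than in TC, at 80.5, 87.0 and 91.7 CPM (log2 0.21, SE 0.06, edgeR adjusted p = 0.0296). The 2 genes called lower than in TC were NAT10, to 78.9, 78.3 and 88.9 CPM (log2 -0.30, SE 0.07, edgeR adjusted p = 0.00582), and POLR1A, to 73.2, 77.9 and 73.6 CPM (log2 -0.29, SE 0.10, edgeR adjusted p = 0.046). Against CC, NAT10 was lower in PC by 0.40 on the log2 scale (edgeR adjusted p = 0.000157). The calls of NHP2, POLR1E, GAR1 and NAT10 held in all 18 alternative fits, while those of POLR1A, GNL3 and DKC1 were lost in 12, 5 and 4 of them. The counts of this comparison were sensitive to single libraries, and without CC replicate 3, which enters through the shared estimate of spread, 12 genes were higher and 4 lower.

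Between day 2 and day 9 the pathway rose again. In RC, 35 of the 43 genes were higher than in PC, against 35.7% of tested genes, and 3 were lower, against 34.2%. The median log2 difference was 0.70, beside 0.02 over all tested genes, and 20 genes rose beyond 1.5-fold (16 by DESeq2), against 20.2%, while UBTF fell beyond it, against 18.5%. Of the 32 genes that were lower than CC in both TC and PC, 31 were higher in RC than in PC. The exception was POLR1D, at 127, 121 and 115 CPM in PC and 124, 127 and 135 CPM in RC (log2 0.08, SE 0.06, edgeR adjusted p = 0.269). The 32 genes were picked for low levels in PC, among others, which favours a rise from PC. The matching share of all tested genes that were lower in both TC and PC was not computed. All 9 processome genes, all 3 PeBoW genes and all 4 abundant nucleolar genes rose. BOP1 had the largest rise among genes with tight libraries, from 44.3, 42.3 and 42.0 CPM to 120, 124 and 116 CPM, or 2.80-fold (log2 1.49, SE 0.07, edgeR adjusted p = 2.82e-09). WDR3 rose to 110.5, 114 and 117 CPM (log2 1.47, SE 0.08, edgeR adjusted p = 9.57e-09). FBL had the largest fitted rise, log2 2.22 (SE 0.83, edgeR adjusted p = 0.0304), from 4.06, 0.717 and 0.809 CPM to 2.41, 5.00 and 18.4 CPM, but its groups overlapped. The 3 genes that fell were UBTF, to 170, 162 and 166 CPM (log2 -0.74, SE 0.05, edgeR adjusted p = 6.24e-08), PPAN, from 7.04, 6.76 and 7.54 to 4.41, 4.02 and 5.30 CPM (log2 -0.64, SE 0.22, edgeR adjusted p = 0.0232), and PNO1. PNO1 went from 59.1, 57.4 and 61.1 CPM to 51.3, 51.7 and 50.6 CPM (log2 -0.21, SE 0.08, edgeR adjusted p = 0.035), so its highest levels outside CC replicate 3 were those of PC. The calls of PNO1, PPAN and FBL were lost in 8, 3 and 3 of 18 alternative fits, and that of BYSL in 2.

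**Figure D4:**
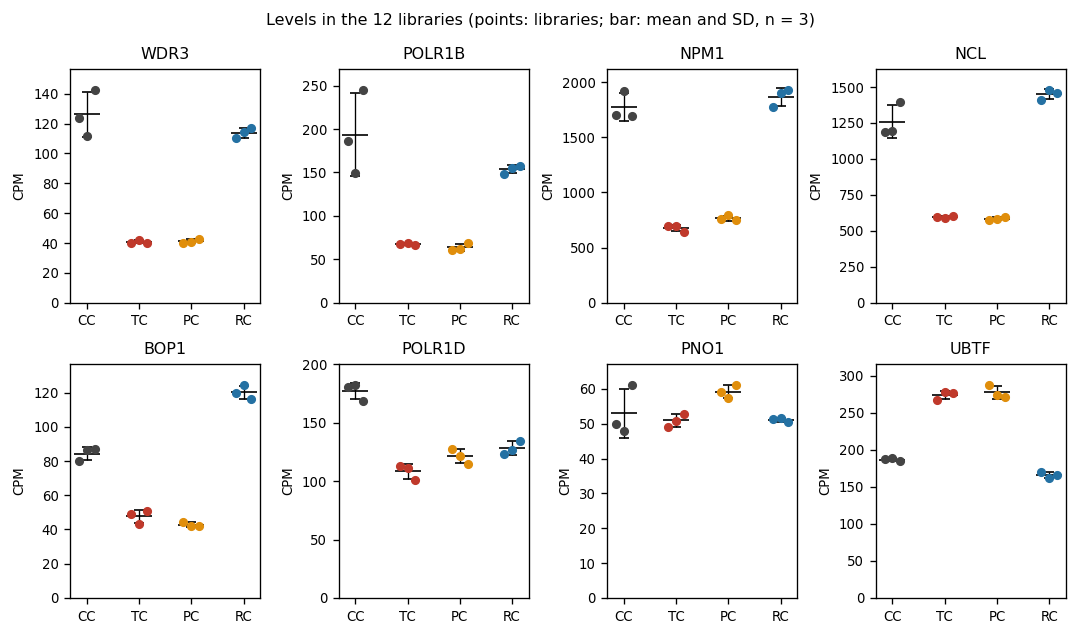
CPM in each of the 12 libraries (points) with the mean and SD of each group (bars, n = 3) for 8 genes, on axes that start at 0. WDR3, POLR1B, NPM1 and NCL are low in TC and PC and back in RC, BOP1 ends above CC, POLR1D stays below it, PNO1 differs little between groups and UBTF is high in TC and PC.

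In RC the set was close to CC, with a median log2 fold change of -0.06. Of the 32 genes that had been lower in TC as well as PC, 22 were no longer called against CC, 5 were still lower and 5 were higher. How all tested genes lower in both TC and PC split in RC was not computed. Over all 43 genes, 7 were lower, against 19.1% of tested genes, and 5 were higher, against 18.2%. By edgeR none of the 43 passed the 1.5-fold test, against 2.52% of tested genes lower and 1.35% higher, and DESeq2 also gave 0, while 1 gene (PPAN) passed it at an unadjusted p under 0.05. BOP1 was 1.42-fold above CC, where it stood at 79.8, 86.4 and 86.8 CPM (log2 0.51, SE 0.07, edgeR adjusted p = 0.000177). MRTO4 reached 149.5, 146 and 143 CPM against 94.9, 105 and 129 CPM in CC (log2 0.41, SE 0.09, edgeR adjusted p = 0.00483). For BOP1 and MRTO4 every RC library was above every CC library. UTP20 reached 114, 122 and 112 CPM against 86.7, 79.5 and 115 CPM in CC, with overlap (log2 0.31, SE 0.11, edgeR adjusted p = 0.0419). NHP2, at 78.8, 78.5 and 77.5 CPM, was higher by log2 0.22 (SE 0.06, edgeR adjusted p = 0.0167). NCL, at 1409, 1479 and 1462 CPM, was higher by log2 0.20 (SE 0.06, edgeR adjusted p = 0.0252), its lowest RC library being just above CC replicate 3.

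Lower than CC at day 9 were 3 of the 5 Pol I subunits. POLR1D, at 124, 127 and 135 CPM against 181, 182 and 169 CPM in CC, was 1.38-fold lower (log2 -0.46, SE 0.06, edgeR adjusted p = 0.000242). POLR1C and POLR1E were both lower by log2 0.35 (edgeR adjusted p = 0.0214 and 0.00113), and none of the 3 overlapped CC. DDX21, at 290.4, 323 and 323 CPM, overlapped CC by its replicate 2 at 323 CPM (log2 -0.36, SE 0.11, edgeR adjusted p = 0.025). WDR12 (log2 -0.19) and UBTF (log2 -0.17, SE 0.05, edgeR adjusted p = 0.0189) were slightly lower without overlap. UBTF thus stood above CC in TC and PC and below it in RC. PPAN had the lowest value, from 7.97, 6.66 and 13.8 CPM in CC (log2 -1.05, SE 0.22, edgeR adjusted p = 0.00339). CC replicate 3 had the highest median of these genes, 0.19 above the CC mean on the log2 scale, and CC replicate 2 the lowest, 0.10 below it. The calls of BOP1, MRTO4, POLR1D, POLR1E and PPAN held in all 18 alternative fits, and those of NHP2, UTP20, NCL, POLR1C, UBTF, WDR12 and DDX21 were each lost in at least 1. Without CC replicate 3, 11 genes were higher than CC in RC, and without CC replicate 2, 15 were lower and 3 higher. Without RC replicate 1, 4 were lower and 3 higher, and without RC replicate 2, 4 were lower and 2 higher.

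Of the wider pathway, 121 of 129 other listed biogenesis genes were tested. In TC 84 were lower and 8 higher than in CC, and their median log2 value was -0.57. As shares, 69.4% were lower and 6.61% higher, against 34.7% and 33.2% of all tested genes. In PC 78 (64.5%) were lower and 11 (9.09%) higher, against 35.9% and 33.2%, and from PC to RC 85 (70.2%) rose and 12 (9.92%) fell, against 35.7% and 34.2%. In RC 16 (13.2%) were lower and 29 (24.0%) higher than in CC, near the 19.1% and 18.2% of all tested genes. The 52 other large-subunit factors counted 42 lower and 2 higher in TC (median log2 -0.73). The 42 other small-subunit factors counted 25 lower and 3 higher (median log2 -0.38), and the difference between these lists was not tested. NLE1, which works with the PeBoW complex, went from a mean of 42.97 CPM in CC to 11.2 in TC (log2 -1.93, SE 0.09, edgeR adjusted p = 3.97e-09), and SBDS, which frees the new large subunit for use, rose (log2 0.45). NOB1, the nuclease that cuts the last small-subunit precursor, fell by 1.34 and RRP36 rose by 0.79 on the log2 scale. Of 14 RNA exosome genes 9 fell and EXOSC10 alone rose (log2 0.48), with EXOSC8 the lowest at log2 -1.69.

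Other Pol I genes did not all move with the 5 subunits described above. Of 13 tested, 8 (61.5%) were lower and 2 (15.4%) higher in TC, where 34.7% and 33.2% of all tested genes were. TAF1D, part of the selectivity factor at Pol I promoters, fell from a mean of 87.8 CPM in CC to 19.8 in TC (log2 -2.15, SE 0.11, edgeR adjusted p = 5.81e-09) and was still low in RC at 46.3 CPM (log2 -0.92, edgeR adjusted p = 6.73e-05). POLR2L, a small subunit common to Pol I, Pol II and Pol III, rose from 66.3 to 213 CPM (log2 1.68, SE 0.10, edgeR adjusted p = 1.83e-08) and in RC, at 85.0 CPM, was still higher than CC by log2 0.36 (SE 0.10, edgeR adjusted p = 0.0116). Of 11 subunits specific to Pol III 7 (63.6%) were lower in TC (median log2 -0.42), with POLR3G the lowest at log2 -1.80. Of 7 subunits specific to Pol II 1 (14.3%) was lower and 2 (28.6%) higher, both shares below those of all tested genes (median log2 0.08), with POLR2I at log2 -0.31 and POLR2J at 0.41.

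Cytosolic ribosomal protein genes, the structural part of the ribosome, were followed beside the biogenesis genes. Of 77 tested, 74 (96.1%) were lower in TC (median log2 -0.86), where 34.7% of all tested genes were. In PC 63 (81.8%) were lower (median -0.44), against 35.9%, and in RC 56 (72.7%) still were (median -0.26), against 19.1%. From TC to PC 67 of the 77 (87.0%) rose, against 12.2% of all tested genes, with a median log2 difference of 0.39. Of the 43 biogenesis genes 5 (11.6%) rose, near that 12.2%, and the median was 0.06. From PC to RC 38 of the 77 (49.4%) rose, against 35.7% of all tested genes, with a median of 0.19. Of the 43 genes 35 (81.4%) rose, and the median was 0.70. The ribosomal protein share of all counts was 6.67% to 7.48% in CC, 3.95% to 4.17% in TC, 5.21% to 5.45% in PC and 5.83% to 6.06% in RC. In PC both this share and that of the 43 genes lay between TC and CC without overlap. The share of the 43 genes stayed nearer to TC, at 0.377% to 0.384% in TC, 0.395% to 0.406% in PC and 0.702% to 0.807% in CC. The difference between these time courses was not tested. Of single ribosomal protein genes, RPS26 was higher in TC (log2 0.27, SE 0.09, edgeR adjusted p = 0.0192), and RPS2 had the lowest value, log2 -5.33 with an SE of 1.503. RPS2 was scattered within groups, with a mean of 63.5 CPM and an SD of 57.55 in CC, and 35.1 and 45.4 in PC. Its value is therefore uncertain.

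Levels of 4 genes were low or scattered. In RRN3, FBL and NOP10 the libraries of a single group differed by more than 3-fold, and without these 3 genes 36 of 40 were lower in TC and 34 in PC. FBL had between 23 and 975 counts per library, and RRN3 between 15 and 921. The table also lists numbered copies of 4 symbols (BOP1_1, FBL_1, RRN3_1 and UTP4_1), of which RRN3_1 reached 234 counts and UTP4_1 193. How reads that match more than 1 place were counted is not given in the sources used here, and its part in these values was not tested. PPAN shares 47.6% of its exon bases with the read-through gene PPAN-P2RY11, which is listed at 0 counts. Because strand use in counting is not given either, reads in exons shared with another gene cannot be assigned for NOP2 (54.4% of exon bases shared), LTV1 (34.7%), NHP2 (28.1%, with RMND5B), TSR1 (26.9%), HEATR1 (23.1%, with LGALS8) and NOP14 (20.7%, with NOP14-AS1). The same holds for NOP16 (18.6%), NIP7 (18.4%, with COG8), POLR1C (18.3%) and WDR3 (17.1%, with SPAG17), and smaller shares occur in other genes. The product of Pol I itself was not measured, as rRNA was depleted and the 28 rRNA entries of the table hold 0 to 34 counts per library.

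**Figure D5:**
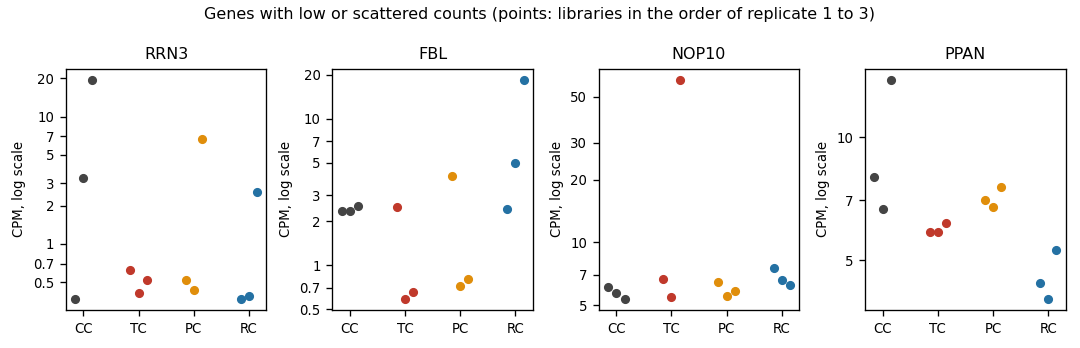
CPM on a log axis in each of the 12 libraries (points, replicates 1 to 3 from left to right in each group) for RRN3, FBL, NOP10 and PPAN. RRN3 runs from 0.370 to 19.5 CPM within CC, FBL reaches 18.4 CPM in RC replicate 3, NOP10 stands at 60.2 CPM in TC replicate 3 alone, and PPAN is highest in CC replicate 3 at 13.8 CPM.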

How the data were processed

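The deposited values are raw counts of reads for each gene and were not normalized, for 12 libraries. The authors trimmed reads with fastp 0.20.1, aligned them to GRCh38.p13 with HISAT2 2.2.1 and counted them with HTSeq 0.13.5 on the NCBI annotation. Strand use and reads with several matches are not given in the sources used here. From these counts, CPM were computed with TMM factors (0.965 to 1.02), and all 12 libraries entered 1 quasi-likelihood fit with group as its only term in edgeR 4.0.16 (R 4.3.3), which has 8 residual degrees of freedom. Genes with a mean scaled count of at least 10 (15916 genes) were tested in 5 comparisons. A gene was called lower or higher (fell, rose) at a Benjamini-Hochberg adjusted p under 0.05 (glmQLFTest, two-sided, over all genes tested), and beyond 1.5-fold by glmTreat at the same level. Errors of fold changes are SEs from this model, and levels are given per library. Intervals are approximate 95% intervals from a normal distribution, and they are narrower than the quasi-likelihood test would give. No library pair was a duplicate. Alternatives were DESeq2 1.42.0, other scalings, another filter, fits of 2 groups, a replicate block and leaving out each library.

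The 43 genes, their 9 roles, the other lists and the tests were chosen with earlier results of these data known, and lists are described by counts and medians without a test. Values in every library were given, in TC against CC, for the genes with the lowest and highest change of each role and, in other comparisons, for the 3 lowest and 3 highest called genes and those called against the majority. In each other list the called genes with the lowest and highest change in TC were named, except for 1 that is not reported here. Gene positions, exon lengths and exon overlaps came from GENCODE v44 (hg38), while counting had used the NCBI annotation. Promoters came from RefSeq (GRCh38.p14). Protein sequences were not analysed here.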

Additional observations from a re-analysis of the deposited data

Results flagged for a closer look

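For 6 genes the change from CC was called in opposite directions in PC and in RC. Since these genes were picked for opposite calls, a difference between PC and RC was all but fixed, and the sizes given here are a description. BOP1 was lower in PC and higher in RC, with a difference between these changes of 1.49 on the log2 scale. The same order held for NCL, with a difference of 1.31, and for UTP20, with 1.16. For MRTO4 the difference was 0.86 and for NHP2 it was 0.41. UBTF went the other way, higher in PC and lower in RC, with a difference of -0.74. The calls of NCL, NHP2, UTP20 and UBTF in RC against CC were lost in at least 1 alternative fit, and that of NHP2 in PC against CC as well. Both changes of a gene were taken from the same 3 CC libraries.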

How the results depend on the processing

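The counts and medians of TC, PC and RC against PC kept their direction in every alternative run. Leaving out 1 library gave 34 to 38 genes lower in TC and 32 to 35 in PC, and 33 to 35 higher in RC than in PC. Genes higher in TC numbered 1 with the replicate block, in the fit of 2 groups, in DESeq2, or without RRN3, FBL and NOP10 (this last added after the data were seen), and 1 was higher beyond 1.5-fold with DESeq2 size factors or with the filter on a summed count of at least 2. Without single libraries the higher genes in TC ranged from 1 to 2, those beyond 1.5-fold from 0 to 1 and the median from -0.88 to -0.73, and in PC the higher genes from 1 to 2 and the median from -0.86 to -0.65. In RC against CC, with only the 2 groups, 3 genes were lower and 2 higher, and without single libraries 4 to 15 were lower, 2 to 11 higher and 0 to 1 lower beyond 1.5-fold, with a median from -0.10 to 0.045. The extremes were CC replicate 2 (15 lower, 3 higher), CC replicate 3 (11 higher), RC replicate 1 (4 lower, 3 higher) and RC replicate 2 (4 lower, 2 higher), while without CC replicate 1 or RC replicate 3 there were 2 and 3 higher. In PC against TC, 1 gene was lower with DESeq2 size factors, library totals or the replicate block, 4 were lower and 10 higher with only the 2 groups, and 10 were higher in DESeq2. Single libraries moved these numbers from 1 to 4 lower and from 3 to 12 higher, with 4 and 12 without CC replicate 3 and 9 higher without CC replicate 2. In RC against PC, genes lower ranged from 1 to 4 and the median from 0.67 to 0.79, with 1 lower without PC replicate 3, RC replicate 1 or RC replicate 2. Of single genes, PNO1 in TC, at -0.06, turned to 0.063 without CC replicate 3, and without other libraries it went down to -0.12. Called genes lost in at least 1 alternative were 5 in TC (NIP7, NOP10, PPAN, RRN3 and RRS1), 2 in PC, 7 of 12 in RC against CC, 3 of 7 in PC against TC (POLR1A, DKC1 and GNL3) and 4 of 38 in RC against PC (FBL, BYSL, PNO1 and PPAN). The cause was not tested. Whether replicate numbers pair the libraries is not known from the labels. Deviations of libraries with the same number had correlations from -0.04 to 0.16, and in PC against TC 0.155, 0.068 and 0.124, and 8 of 12 libraries correlated best with their own number, which is a hint from the data and not the design. Precision is limited by 3 libraries per group, and at the depth reached only RRN3, FBL, NOP10 and PPAN had few counts.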
